A study of Sus scrofa with 6 samples.

Results

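The lipoprotein lipase system was followed in primary cells of pig ear cartilage through 10 genes: the angiopoietin-like proteins ANGPTL4, ANGPTL1 and ANGPTL2, the lipase LPL and its maturation factor LMF1, the lipoprotein receptor VLDLR, the fatty acid uptake proteins CD36 and SLC27A1, and the intracellular fatty acid carriers FABP3 and FABP4. The genes were chosen by name, with earlier results of these data known. ANGPTL4, ANGPTL1, ANGPTL2, LMF1, VLDLR and SLC27A1 were found by the symbol that a gene name table pairs with their model's identifier, and CD36 and FABP3 by the protein name in the deposited annotation. In all, 8 of the 10 genes were found, as 12 of the 19670 gene models. No model was found by either route for LPL or FABP4, and both are not analysed here.

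GW0742 cells were exposed for 24 h to that compound, which activates the lipid-sensing nuclear receptor PPARD, and DMSO cells received the solvent for as long. Cells of both groups were freed by enzymes from the external ears of 1 pig aged 4 months, a Duroc x (Landrace x Large White) hybrid with wild-type PPARD. Each group has 3 libraries of oligo(dT)-selected RNA, read on an Ion Proton instrument, with 13133980 to 16913745 estimated reads per library. All libraries come from 1 animal and separate cultures are not stated, so p-values rest on the spread among these libraries, and that spread may be technical.

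Lipoprotein lipase is a secreted enzyme that frees fatty acids from the triglycerides of circulating lipoproteins, at the surface of capillaries in fat, heart and muscle. LMF1 folds the lipase in the endoplasmic reticulum, and ANGPTL4 inactivates the lipase. Freed fatty acids enter cells with the help of CD36 and SLC27A1 and are carried in the cytosol by fatty acid-binding proteins, while VLDLR takes up whole lipoprotein particles. ANGPTL4 is a classical target gene of the PPAR receptors.

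The chondrocyte markers SOX9 and COL2A1 were present in every library, COL2A1 at 104 to 112 RPKM in GW0742 cells and 109 to 119 RPKM in DMSO cells. RPKM, the deposited measure of level, stands for reads per kilobase of model, scaled to library size. For some models outside the tested members, LIPG, SDC1 and PECAM1 among them, it did not follow from the estimated reads and listed length. RPKM levels of such models are uncertain. ACAN, the main cartilage proteoglycan, was lower with GW0742 (log2 -0.50, edgeR adjusted p = 0.0185). That call was lost at an adjusted p under 0.01 and in an edgeR fit with a replicate block. It was also lost without GW0742 replicate 1, DMSO replicate 1 or DMSO replicate 3, as no model was called lower in these fits. The 10 chondrocyte markers summed to 358 to 375 RPKM in GW0742 cells and 415 to 432 RPKM in DMSO cells, mostly from COL11A1, COL2A1 and ACAN. Their part in the results below was not tested. MATN1, another cartilage marker, was too low to test. COL9A1, MATN3 and HAPLN1 were low in every library, at no more than 0.610, 1.57 and 2.37 RPKM. The 7 fibroblast markers with a model summed to 14326 to 15164 RPKM in GW0742 cells and 15158 to 15614 RPKM in DMSO cells, mostly from COL1A2 and VIM. LUM and DCN, also on that list, lay below COL2A1, with LUM at 13.1 to 18.4 RPKM in GW0742 cells and 8.70 to 12.3 RPKM in DMSO cells. DESeq2 called ACAN and COL11A1 lower among the 9 chondrocyte markers tested. Among the 7 fibroblast markers tested it called THY1 lower and LUM higher. Over all models it called 3.12% in either direction. In bulk RNA, fewer cells of a type and less RNA per cell cannot be told apart.

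ANGPTL4 rose with GW0742 and reached about the RPKM level of ANGPTL2 and VLDLR. None of the other tested members passed the test. ANGPTL4 (ENSSSCG00000013599) stood at 74.8, 68.1 and 69.2 RPKM in GW0742 replicates 1, 2 and 3. It stood at 6.05, 9.73 and 7.99 RPKM in DMSO replicates 1, 2 and 3. The groups lay far apart, and the lowest GW0742 library was well above the highest DMSO library. These levels rest on 2611, 2821 and 2826 estimated reads in GW0742 libraries and 269.9, 353 and 358 in DMSO libraries, so the gene was well counted in both groups.

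The fold change of ANGPTL4 was 8.81, with a 95% interval of 6.91 to 11.2 (log2 3.14 ± 0.15 SE, edgeR quasi-likelihood test, adjusted p = 0.000193). In CPM, counts scaled to library size without regard to gene length, it averaged 187 ± 12 CPM in GW0742 cells and 21.3 ± 5.2 CPM in DMSO cells (SD, n = 3 each). It had the lowest p of all 14146 tested models and the 15th highest log2 fold change. By RPKM it ranked 1052nd to 1165th of all models in GW0742 libraries and 6068th to 7921st in DMSO libraries.

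Of the 8 member models deep enough to test, which belong to 6 genes, 1 passed the edgeR threshold (adjusted p under 0.05) as higher in GW0742 cells and 0 as lower. The other 4 models (ANGPTL1, both of CD36 and 1 of FABP3) fell below the filter on low counts. Over all tested models, 0.184% were called higher and 0.0778% lower. At an unadjusted p under 0.05, 2 members were higher and 0 lower, ANGPTL4 and LMF1, where the share of all tested models in either direction was 16.8%. DESeq2 also called 1 member, against 3.12% of all models in either direction. The CPM of the groups did not overlap in 4 of the 8, ANGPTL4, LMF1 and a pair of FABP3 models, where 23.4% of all tested models had groups that did not overlap. Log2 fold changes were above 0 in 6 of the 8, where 49.7% of all tested models lay above 0. The median log2 fold change of the 8 was 0.31, and that of all tested models was -0.0015. FABP3 enters these counts and this median through several models that can share reads, so the 8 do not stand for separate genes.

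**Figure D1:**
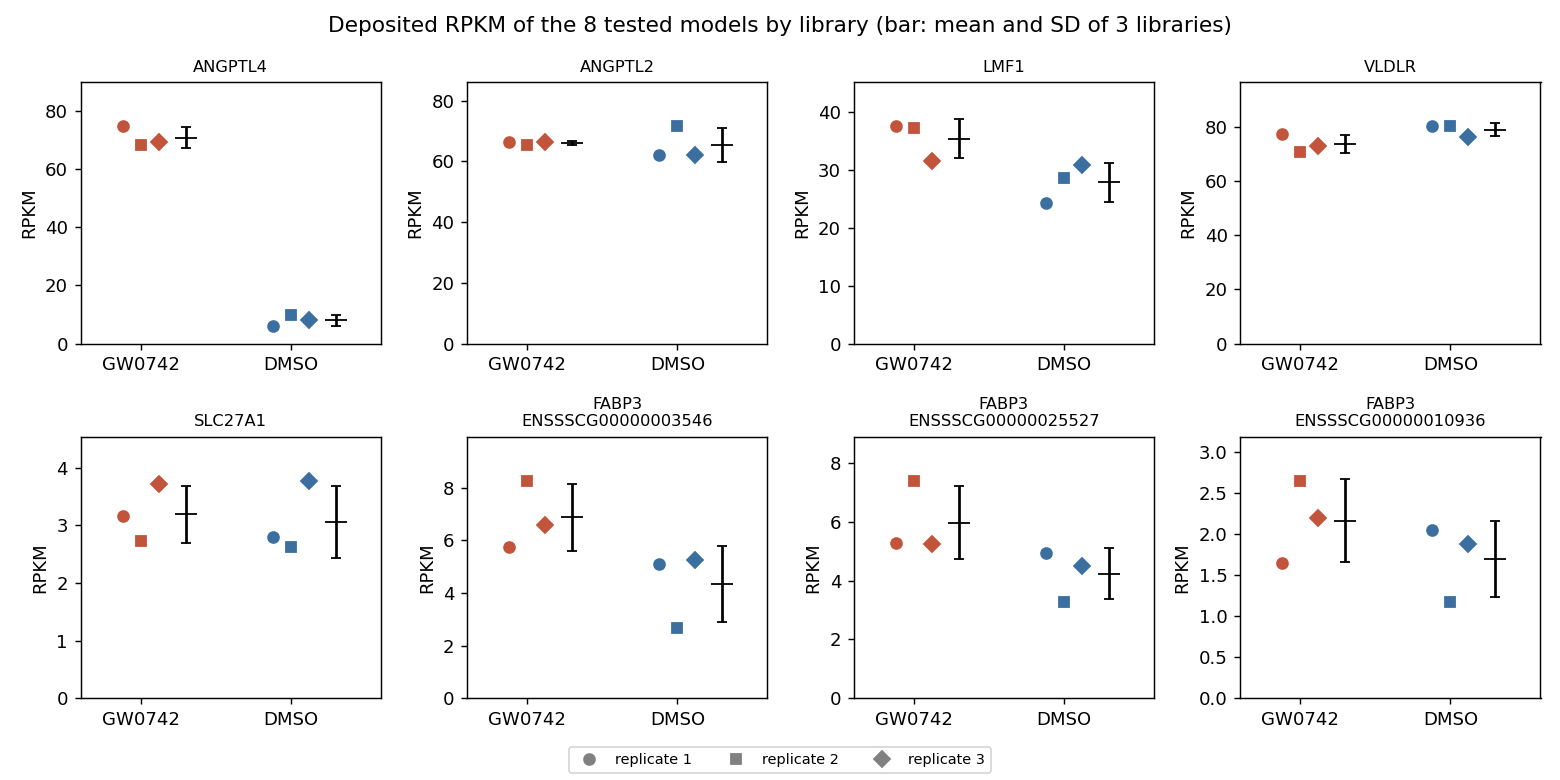
Deposited RPKM (vertical axes, linear from 0) of the 8 tested models in the 3 GW0742 and 3 DMSO libraries, with a bar for the mean and SD of each group. ANGPTL4 lies at 68.1 to 74.8 RPKM in GW0742 libraries, against 6.05 to 9.73 RPKM in DMSO libraries, while the groups lie close together or overlap in the other panels.

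**Figure D2:**
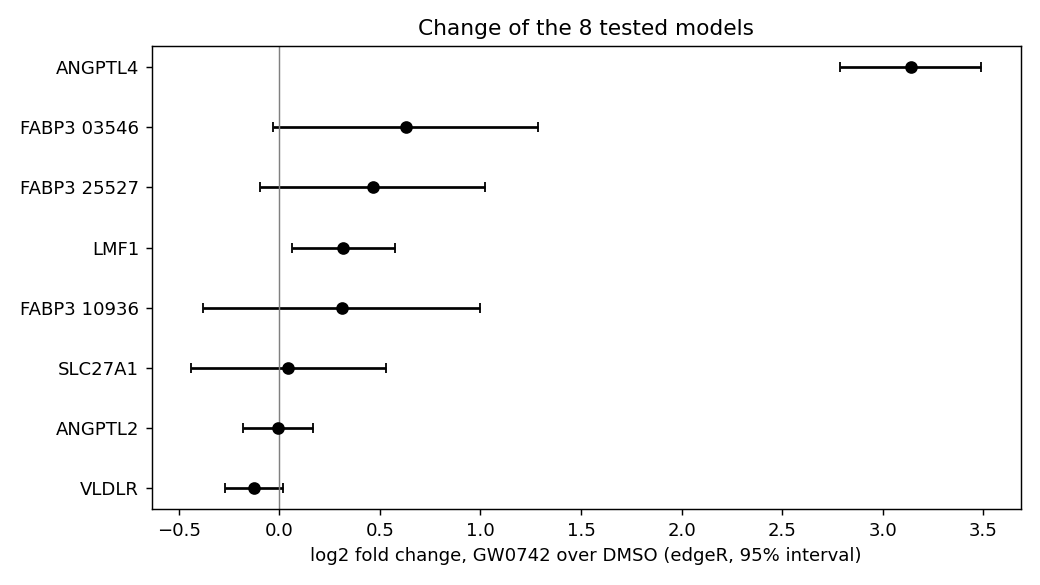
Log2 fold change of GW0742 over DMSO (horizontal axis) of the 8 tested models, with 95% intervals from edgeR. FABP3 models carry the last 5 digits of their identifier. The interval of ANGPTL4 runs from 2.79 to 3.49, and the next highest upper bound, of an FABP3 model, is 1.29.

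ANGPTL4 was also set against other members within each library, as a description of the same values and with no test. The ratio of its RPKM to that of ANGPTL2 was 1.13, 1.04 and 1.04 in GW0742 replicates 1, 2 and 3, against 0.0975, 0.136 and 0.129 in DMSO replicates 1, 2 and 3. It was thus near 1 in GW0742 libraries, and the geometric means of the groups differed 8.95-fold. Against VLDLR they differed 9.74-fold and against LMF1 7.14-fold. These ratios show unequal change between the genes and not that a denominator stayed the same.

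ANGPTL2 (ENSSSCG00000005608), a secreted relative that is known for roles in inflammation and tissue remodelling, did not pass the test. It stood at 66.3, 65.4 and 66.5 RPKM in GW0742 replicates 1, 2 and 3, against 62.0, 71.7 and 62.1 RPKM in DMSO replicates 1, 2 and 3. The GW0742 libraries lay within the range of the DMSO libraries, and DMSO replicate 2 was the highest. The log2 fold change was -0.0077 ± 0.077 (SE, edgeR adjusted p = 0.973), and its sign turned with the setting. The 95% interval of the fold ran from 0.881 to 1.12.

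ANGPTL1 (ENSSSCG00000015522), a relative described as a restraint on blood vessel growth, was too low to test. It had 0, 4.5 and 5.8 estimated reads in GW0742 replicates 1, 2 and 3, and 2.0, 1.9 and 2.8 in DMSO replicates 1, 2 and 3. A floor of 3 reads, which covers counting error only, corresponds to 0.178 to 0.230 CPM in these libraries, and no fold is given. ANGPTL6, a relative outside the 10 genes, named here after its values were seen, averaged 6.40 ± 0.38 RPKM in GW0742 cells and 4.51 ± 1.15 RPKM in DMSO cells (SD, n = 3 each). Its log2 fold change was 0.48 ± 0.19 (SE, edgeR adjusted p = 0.265), so it did not pass.

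LMF1 (ENSSSCG00000008009), the membrane chaperone that lipoprotein lipase needs to become active, was the nearest to the threshold among the other members. It stood at 37.7, 37.2 and 31.5 RPKM in GW0742 replicates 1, 2 and 3, against 24.3, 28.6 and 30.9 RPKM in DMSO replicates 1, 2 and 3. Every GW0742 library was above every DMSO library, but GW0742 replicate 3 lay close to DMSO replicate 3. In CPM it averaged 41.1 ± 3.7 in GW0742 cells and 32.9 ± 4.3 in DMSO cells (SD, n = 3 each). The fold was 1.25, with a 95% interval of 1.04 to 1.49 (log2 0.32 ± 0.11 SE, edgeR unadjusted p = 0.0208, adjusted p = 0.213).

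VLDLR (ENSSSCG00000005229), which binds lipoproteins rich in triglyceride and apolipoprotein E, was the highest member by RPKM in both groups. It stood at 77.2, 70.8 and 72.8 RPKM in GW0742 replicates 1, 2 and 3, against 80.3, 80.3 and 76.2 RPKM in DMSO replicates 1, 2 and 3. GW0742 replicate 1 lay above DMSO replicate 3, so the groups overlapped. The log2 fold change of -0.12 ± 0.06 (SE) did not pass in edgeR (adjusted p = 0.37), with a 95% interval of the fold from 0.829 to 1.01.

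A second model, ENSSSCG00000005230, has a VLDLR-like protein name but is not counted among the members, since VLDLR was found by symbol. It is 435 bases long, against 3286 bases for the VLDLR model, and it varied widely inside both groups. Its levels were 2.83, 24.8 and 10.7 RPKM in GW0742 replicates 1, 2 and 3, against 18.5, 31.9 and 14.3 RPKM in DMSO replicates 1, 2 and 3. The log2 fold change was -0.76 ± 0.57 (SE, edgeR adjusted p = 0.54). Reads of the 2 models may be split by the counting, so the level of each is uncertain.

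Among the members, the fatty acid uptake proteins CD36 and SLC27A1 were low. CD36, a scavenger receptor that binds long-chain fatty acids, has 2 models, each with 0 reads in most libraries. ENSSSCG00000030638 had 1.3 estimated reads in GW0742 replicate 2 and 0 in the others. ENSSSCG00000015405 had 1.1 in GW0742 replicate 2, 1.4 in DMSO replicate 3 and 0 in the others. All of these are under the floor of 3 reads, so a difference was not detectable at this depth.

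SLC27A1 (ENSSSCG00000013879), the fatty acid transport protein of fat and muscle, was low but measurable. It stood at 3.16, 2.72 and 3.71 RPKM in GW0742 replicates 1, 2 and 3, against 2.79, 2.62 and 3.77 RPKM in DMSO replicates 1, 2 and 3. Replicate 3 was the highest in both groups and the range of the GW0742 libraries lay within that of the DMSO libraries. Counts of 57.5 to 102 reads per library gave a log2 fold change of 0.05 ± 0.21 (SE, edgeR adjusted p = 0.938), with a sign that turned when single libraries were left out. The 95% interval of the fold ran from 0.739 to 1.44.

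FABP3, the fatty acid-binding protein of heart and muscle, is spread over 4 models with its protein name, and their values are uncertain because near-identical models can share reads. ENSSSCG00000003546 stood at 5.76, 8.27 and 6.60 RPKM in GW0742 replicates 1, 2 and 3, against 5.12, 2.69 and 5.25 RPKM in DMSO replicates 1, 2 and 3. ENSSSCG00000025527 stood at 5.26, 7.38 and 5.24 RPKM in GW0742 replicates 1, 2 and 3, against 4.94, 3.27 and 4.48 RPKM in DMSO replicates 1, 2 and 3. In both models GW0742 replicate 2 was the highest, DMSO replicate 2 the lowest, and the groups did not overlap, though the nearest libraries lay close together. ENSSSCG00000010936 (1.65 to 2.65 RPKM in GW0742 cells, 1.17 to 2.04 RPKM in DMSO cells) and ENSSSCG00000011419 (0.893 to 1.16 RPKM in GW0742 cells, 0.311 to 1.09 RPKM in DMSO cells) overlapped between the groups.

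The log2 fold changes of the 3 tested FABP3 models were 0.63 ± 0.29, 0.46 ± 0.25 and 0.31 ± 0.30 (SE, edgeR adjusted p = 0.322, 0.384 and 0.66), in the order given above, and none passed. The fourth was too low to test. ENSSSCG00000003546 took 40.9% to 42.1% of the joint reads of the 4 models in GW0742 libraries and 34.5% to 40.0% in DMSO libraries, and ENSSSCG00000025527 took 37.3% to 41.7% in GW0742 libraries and 38.1% to 46.9% in DMSO libraries. The smallest share, of ENSSSCG00000011419, was 4.61% to 6.79% in GW0742 libraries and 3.67% to 7.67% in DMSO libraries. Summed over the 4 models, a step chosen after seeing the data, FABP3 averaged 6.91 ± 1.13 CPM in GW0742 cells and 4.85 ± 1.27 CPM in DMSO cells (SD, n = 3 each). The sum had a fold of 1.42, with a 95% interval of 0.993 to 2.03, and did not pass (edgeR unadjusted p = 0.0537, adjusted p = 0.308).

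A further short model of 147 bases, ENSSSCG00000003594, is called only a fatty acid-binding protein, though its pathway annotation matches FABP3. It was not assigned to a member and is not part of the FABP3 sum above. In CPM it averaged 7.06 ± 1.56 in GW0742 cells and 5.96 ± 0.37 in DMSO cells (SD, n = 3 each). It stood at 42.5, 64.5 and 44.1 RPKM in GW0742 replicates 1, 2 and 3, against 42.6, 43.7 and 39.2 RPKM in DMSO replicates 1, 2 and 3. GW0742 replicate 2 stood above the other 5 libraries, and the groups overlapped (log2 0.25 ± 0.19 SE, edgeR adjusted p = 0.534).

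Per length, the order of the members in GW0742 cells began with VLDLR (73.6 ± 3.3 RPKM), ANGPTL4 (70.7 ± 3.6 RPKM), ANGPTL2 (66.0 ± 0.59 RPKM) and LMF1 (35.5 ± 3.4 RPKM) (SD, n = 3). VLDLR and ANGPTL4 overlapped in their libraries, as did the leading pair of FABP3 models further down, while ANGPTL4 and ANGPTL2 did not. In DMSO cells the order was VLDLR (78.9 ± 2.3 RPKM), ANGPTL2 (65.3 ± 5.6 RPKM), LMF1 (27.9 ± 3.4 RPKM) and ANGPTL4 (7.92 ± 1.84 RPKM) (SD, n = 3), and none of these 4 overlapped its neighbour. SLC27A1 and the FABP3 models followed in both groups, and ANGPTL1 and CD36 stood last, with overlapping libraries.

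**Figure D3:**
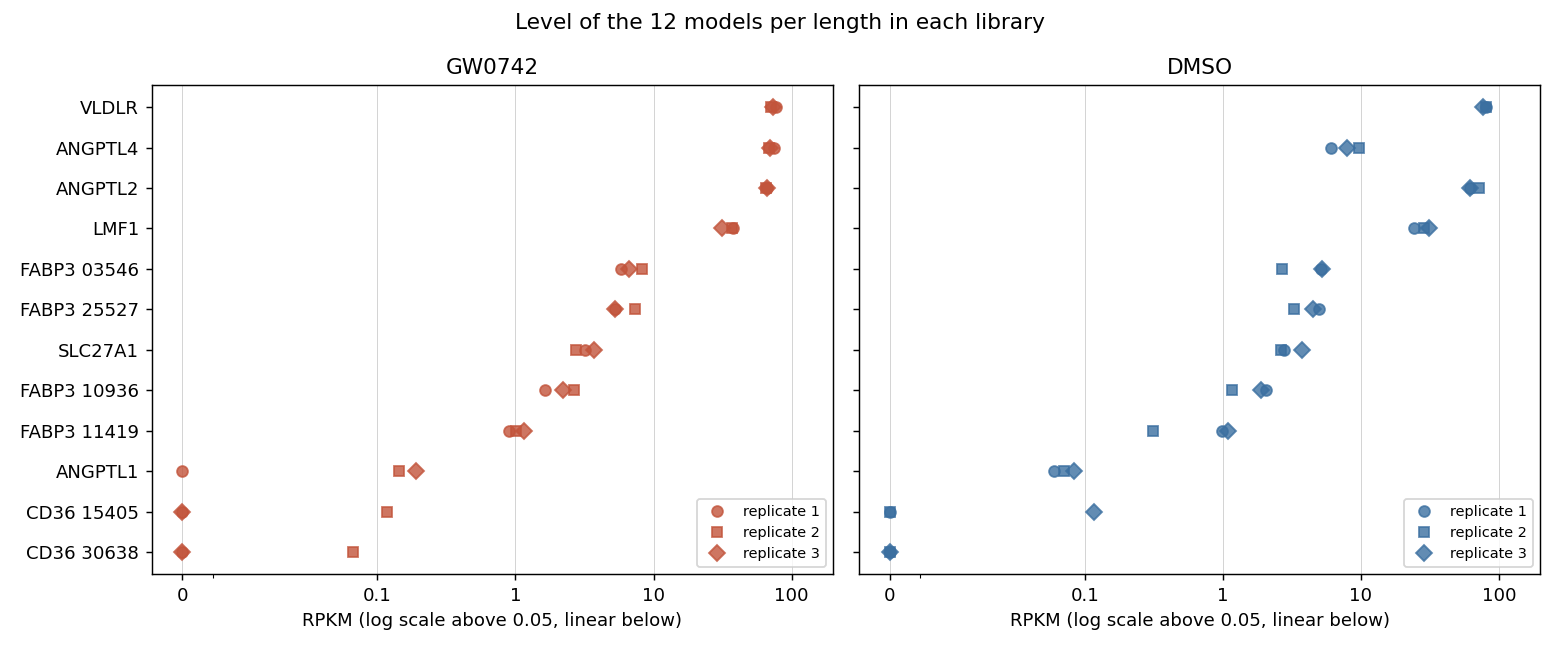
RPKM of the 12 member models (horizontal axis, log scale above 0.05 and linear below) in each library, GW0742 on the left and DMSO on the right, with models in the order of their GW0742 mean. ANGPTL4 lies beside VLDLR and ANGPTL2 in GW0742 cells and below LMF1, at 6.05 to 9.73 RPKM, in DMSO cells.

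Around these members, 61 other genes of the pathway were listed in 3 groups, and 48 had a model. Of the 34 that were deep enough to test, 0 passed the edgeR threshold as higher and 0 as lower, against 0.262% of all tested models in either direction. At an unadjusted p under 0.05, 9 were higher and 1 was lower, where 7.93% of all tested models were higher and 8.91% lower. The median log2 fold change of the 34 was 0.02. DESeq2 called 3 of the 34, APOE and LRP5 higher and CAV1 lower, against 3.12% of all models in either direction.

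**Figure D4:**
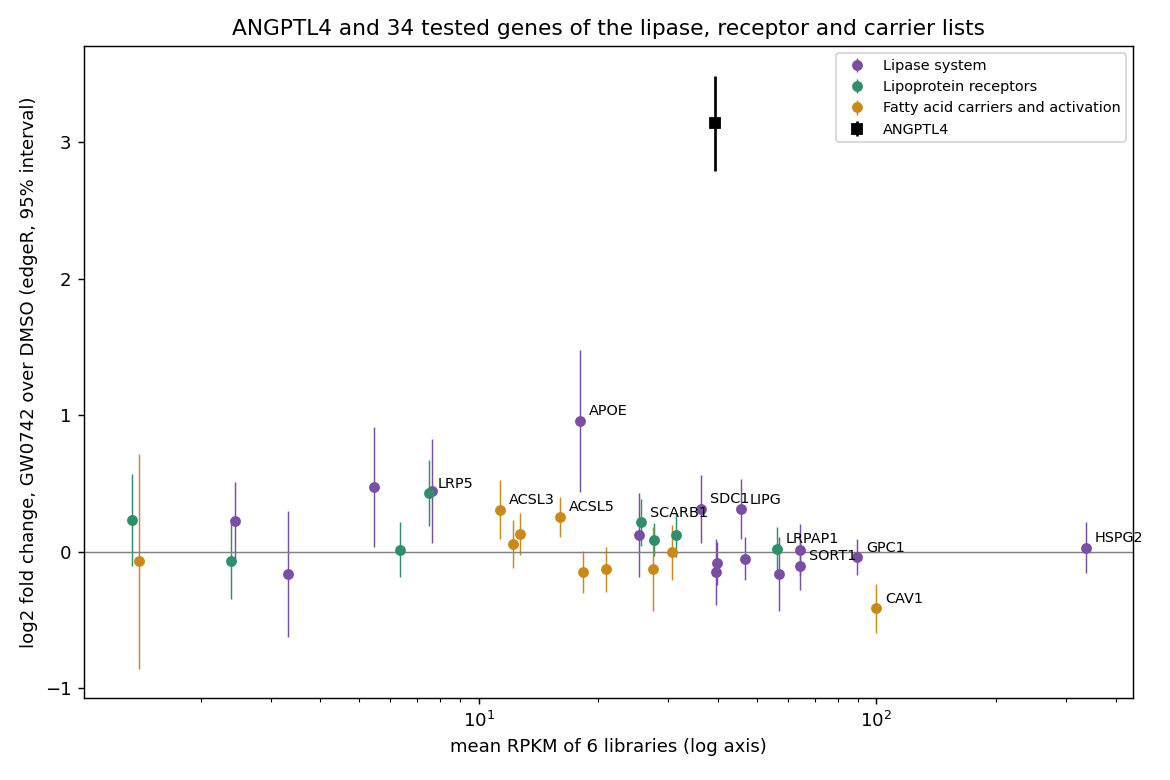
Log2 fold change of GW0742 over DMSO (vertical axis, with 95% intervals from edgeR) against the mean RPKM of the 6 libraries (log axis) for ANGPTL4 and the 34 tested genes of the 3 lists. ANGPTL4 lies at 3.14, APOE, the highest of the 34, at 0.96 and CAV1, the lowest, at -0.42.

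Of 26 genes of the lipase system, which act on the lipase, its relatives, its binding sites or its cofactors, 16 were tested and none passed in edgeR (9 log2 values above 0 and 7 below, median 0.02). APOE (ENSSSCG00000003088), the apolipoprotein by which remnant particles bind VLDLR and related receptors, stood at 30.2, 23.8 and 17.5 RPKM in GW0742 replicates 1, 2 and 3, against 9.41, 15.3 and 11.5 RPKM in DMSO replicates 1, 2 and 3. All GW0742 libraries were above all DMSO libraries, with GW0742 replicate 3 the nearest. The log2 fold change was 0.96 ± 0.23 (SE), with an adjusted p of 0.111 in edgeR and 0.0015 in DESeq2.

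LIPG, the endothelial lipase, which acts mainly on phospholipids, averaged 51.4 ± 1.6 RPKM in GW0742 cells and 39.8 ± 4.8 RPKM in DMSO cells (SD, n = 3 each). Its log2 fold change of 0.31 ± 0.10 (SE) did not pass (edgeR adjusted p = 0.171, DESeq2 adjusted p = 0.0549). SDC1, a heparan sulfate proteoglycan that binds lipoproteins, averaged 41.2 ± 5.9 CPM in GW0742 cells and 33.2 ± 2.0 CPM in DMSO cells (SD, n = 3 each; log2 0.31 ± 0.11 SE, edgeR adjusted p = 0.211). In RPKM the groups lay further apart, with 43.9 ± 9.7 RPKM in GW0742 cells and 28.4 ± 0.85 RPKM in DMSO cells (SD, n = 3 each), and limma on log2(RPKM + 0.1) gave a log2 fold change of 0.61, which did not pass either. The abundant heparan sulfate proteoglycans HSPG2 and GPC1 and the sorting receptor SORT1 averaged 342, 88.8 and 62.5 RPKM in GW0742 cells and 330, 89.8 and 66.0 RPKM in DMSO cells. Their log2 fold changes of 0.03 ± 0.08, -0.04 ± 0.06 and -0.10 ± 0.08 (SE) did not pass in edgeR, and that of HSPG2 changed sign in 2 of the fits that left out a library.

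Of 14 lipoprotein receptors and their helpers, 8 were tested and none passed in edgeR (7 log2 values above 0 and 1 below, median 0.11). LRP5, which serves as a Wnt co-receptor, averaged 8.68 ± 0.47 RPKM in GW0742 cells and 6.33 ± 0.71 RPKM in DMSO cells (SD, n = 3 each). Its groups did not overlap, and its adjusted p was 0.121 in edgeR and 0.0472 in DESeq2 (log2 0.43 ± 0.11 SE). SCARB1, the receptor of high-density lipoprotein, averaged 27.7 ± 2.5 RPKM in GW0742 cells and 23.5 ± 1.6 RPKM in DMSO cells (SD, n = 3 each; edgeR adjusted p = 0.208). SCARB2, a lysosomal relative of CD36, averaged 28.7 RPKM in GW0742 cells and 26.5 RPKM in DMSO cells (edgeR adjusted p = 0.446). LRPAP1, a chaperone of lipoprotein receptors, averaged 57.0 RPKM in GW0742 cells and 55.2 RPKM in DMSO cells. It did not pass in edgeR (adjusted p = 0.92), and its sign turned without GW0742 replicate 1.

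Of 21 genes of fatty acid carriage and activation, 10 were tested and none passed in edgeR (4 log2 values above 0 and 6 below, median -0.04). CAV1, the coat protein of caveolae, which also takes part in fatty acid uptake, stood at 91.8, 78.3 and 89.4 RPKM in GW0742 replicates 1, 2 and 3, against 118, 113 and 109.8 RPKM in DMSO replicates 1, 2 and 3. The groups did not overlap. The log2 fold change was -0.42 ± 0.08 (SE), with an adjusted p of 0.0756 in edgeR and 0.000201 in DESeq2.

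ACSL5 and ACSL3, which couple long-chain fatty acids to coenzyme A, averaged 17.5 ± 0.28 and 12.6 ± 1.3 RPKM in GW0742 cells and 14.4 ± 0.69 and 9.99 ± 0.40 RPKM in DMSO cells (SD, n = 3 each). Their groups did not overlap, and neither passed in edgeR (log2 0.25 ± 0.06 and 0.31 ± 0.09 SE, adjusted p = 0.124 and 0.164). FABP5, the epidermal fatty acid-binding protein, averaged 26.5 ± 3.5 RPKM in GW0742 cells and 28.5 ± 4.4 RPKM in DMSO cells (SD, n = 3 each), above each assigned FABP3 model, and did not pass (edgeR adjusted p = 0.668). GOT2, a mitochondrial enzyme also described as a fatty acid-binding protein of the plasma membrane, averaged 30.8 RPKM in GW0742 cells and 30.4 RPKM in DMSO cells (log2 -0.0058 ± 0.088 SE, edgeR adjusted p = 0.981). The signs of FABP5 and GOT2 turned in some of the other fits.

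Markers of other cell types in which the lipase system is active were summed in each library. Of 10 adipocyte markers, 5 had a model, with a sum of 3.61 to 5.15 RPKM in GW0742 cells and 3.91 to 4.79 RPKM in DMSO cells, and neither of the 2 tested, PCK1 and PPARG, passed in edgeR. Of 8 macrophage and leukocyte markers, 6 had a model. These 6 summed to 13.0 to 14.4 RPKM in GW0742 cells and 11.1 to 12.9 RPKM in DMSO cells, mostly from CD14. The 8 of 11 endothelial markers with a model summed to 115 to 144 RPKM in GW0742 cells and 76.9 to 109.8 RPKM in DMSO cells, mostly from CLDN5. None of the 7 endothelial markers tested passed in edgeR, though 6 lay above 0 on the log2 scale (median of the 7, 1.16), each at an unadjusted p under 0.05. The CPM of the groups did not overlap in 5 of the 7 (PECAM1, KDR, CLDN5, EGFL7 and ESAM), and DESeq2 called 2 of them higher with GW0742, PECAM1 and KDR (adjusted p = 0.000214 and 0.0156). Over all models and in either direction, 16.8% had an unadjusted edgeR p under 0.05. Groups did not overlap in CPM in 23.4%, and DESeq2 called 3.12%. PECAM1, which joins endothelial cells to each other, stood at 13.0, 20.4 and 6.35 RPKM in GW0742 replicates 1, 2 and 3, against 6.73, 8.25 and 4.66 RPKM in DMSO replicates 1, 2 and 3, with groups that overlapped in RPKM. In CPM it ran from 15.6 to 35.0 in GW0742 cells and 11.1 to 12.2 in DMSO cells, with no overlap (log2 1.16 ± 0.26 SE, edgeR adjusted p = 0.0977). KDR, a receptor for vascular endothelial growth factor, ran from 2.48 to 6.17 CPM in GW0742 cells and 1.14 to 1.80 CPM in DMSO cells (log2 1.56 ± 0.36 SE, edgeR adjusted p = 0.107). ADIPOQ, PLIN1, CDH5, VWF and CD163 had no model and are not analysed here. Of 10 markers of skeletal and smooth muscle, 8 had a model. These 8 summed to 1997 to 2266 RPKM in GW0742 cells and 2513 to 2658 RPKM in DMSO cells, mostly from ACTA2. The skeletal muscle markers CKM, ACTA1 and MYOD1 stood at no more than 0.531, 3.19 and 0.0670 RPKM, and MYL1 at 8.12 to 14.2 RPKM. MYH2 and TNNT3 had no model. None of the 7 muscle markers tested passed in edgeR, and DESeq2 called ACTA2 and CNN1 lower. No marker with a model was at 0 in all 6 libraries. The part of these cell types in the levels of ANGPTL4 and the other members was not tested.

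The 5 genes with a symbol and at least 1 CPM whose log2 CPM followed ANGPTL4 most closely over the 6 libraries were SLC25A5, CPT1A, MPPE1, SAT1 and EXOSC7, with Pearson correlations of 0.998, 0.993, 0.992, 0.992 and 0.991. All points share the same libraries and the difference between groups, so these are descriptions without a test. CPT1A, which commits fatty acids to mitochondrial oxidation, averaged 136 ± 8.4 CPM in GW0742 cells and 35.3 ± 7.7 CPM in DMSO cells (SD, n = 3 each; log2 1.95, edgeR adjusted p = 0.00151). The other 4 had log2 values from 0.17 to 0.61, and none of them passed in edgeR. SLC25A5, a mitochondrial exchanger of ADP and ATP, averaged 57.1 ± 0.82 CPM in GW0742 cells and 44.2 ± 0.84 CPM in DMSO cells (SD, n = 3 each; edgeR adjusted p = 0.0625, DESeq2 adjusted p = 0.0051).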

How the data were processed

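RNA of 3 GW0742 and 3 DMSO libraries was measured. Per the file headers, each deposited library table holds estimated counts and RPKM per gene model, and the deposited series table repeats the RPKM with protein names. The build named in the submitters' processing notes is Sscrofa 10.2. Aligner, counting program and annotation release: not given in the sources used here, and no strand step is named. The deposited RPKM were 0.914 to 0.936 times (medians by library) the values computed from estimated reads, model length and summed reads. For the 8 tested member models this ratio ran from 0.908 to 0.968. It did not hold for every model. In GW0742 replicate 1, LIPG had 2750 reads over 1701 bases at 50.3 RPKM, and ANGPTL4 had 2611 reads over 2468 bases at 74.8 RPKM. A gene name table named 11147 models. Protein and pathway identifiers leading to the same RefSeq gene (Sscrofa11.1) named 567 more.

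Estimated counts were rounded. After filterByExpr (minimum count 10) and TMM scaling, GW0742 was compared with DMSO by the quasi-likelihood test of edgeR 4.0.16 (R 4.3.3), with no replicate block. P-values are two-sided, and adjusted ones use the Benjamini-Hochberg method over all 14146 tested models (threshold 0.05). The SE is the log2 fold change divided by the root of F, and intervals are 95% intervals of that fit. Library totals were 13133980 to 16913745. Alternatives were DESeq2 1.42.0, limma 3.58.1 on log2(RPKM + 1) and log2(RPKM + 0.1), median-of-ratios factors, no filter, a robust prior, summed models, a replicate block, an adjusted p under 0.01 and leaving out each library.

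Members and lists were chosen with earlier results of these data known. The genes named are all members, the 5 most like ANGPTL4 and, in each pathway list, any gene past the threshold, the 3 with the lowest p and the 3 with the highest mean RPKM. Single markers were named after their values were seen. A gene that this rule names is not reported here.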

Additional observations from a re-analysis of the deposited data

How the results depend on the processing

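ANGPTL4 kept its direction and its call in all 14 alternative fits, with log2 fold changes of 2.96 (without DMSO replicate 1) to 3.32 (without DMSO replicate 2) and adjusted p-values up to 0.0069, and 1 member was higher and 0 lower in each of them and at an adjusted p under 0.01. LMF1 ranged from 0.21 to 0.40 over left-out libraries and passed in none. Summing the FABP3 models was chosen after seeing the data. Models called higher numbered 26 and models called lower 11. DESeq2 gave 207 and 234, no filter 13 and 3, log2(RPKM + 0.1) 17 and 4, log2(RPKM + 1) 3 lower, models of 1 protein name summed 50 and 28, and an adjusted p under 0.01 gave 6 and 0 (1260 lower unadjusted, at 0.05). Leaving out a library gave 6 (without DMSO replicate 1) to 54 (without GW0742 replicate 3) higher and 0 to 47 lower. With edgeR, 0 were lower without GW0742 replicate 1, DMSO replicate 1 or DMSO replicate 3, where 1032, 842 and 945 were lower unadjusted. The replicate block gave 10 and 0 (1102 lower unadjusted) and changed no call of a member or pathway gene. Same-numbered libraries did not deviate together (correlations 0.0054, -0.032 and -0.103), and differently numbered ones gave -0.0374 to 0.0685. With so few libraries these values cannot exclude a pairing, and the sample titles state none. DESeq2 called 2 pathway genes higher and 1 lower. The cause of these differences was not tested. No pathway gene was called in the other alternatives, left-out libraries included. Values near 0 changed sign. On both log2(RPKM) scales ANGPTL2 was 0.021 (0.0205 and 0.0208), and GOT2 was 0.0174 and 0.0178. Over left-out libraries ANGPTL2 ran from -0.055 to 0.076, SLC27A1 from -0.087 to 0.23, HSPG2 from -0.040 to 0.085, LRPAP1 from -0.029 to 0.079, FABP5 from -0.22 to 0.0092 and GOT2 from -0.083 to 0.053. Depth limits ANGPTL1 and CD36, at a few reads per library.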
